A study of Mus musculus with 20 samples.

Results

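The interleukin-1 (IL-1) family genes followed here are 9 of the 43422 Ensembl genes measured in the mouse abdominal aorta. They were chosen by name as cytokines and receptors of the family, with earlier results of these data known. They are the ligands *Il1a*, *Il1b*, *Il18* and *Il33*, the antagonist *Il1rn*, the receptors *Il1r1* and *Il1rl1*, the decoy receptor *Il1r2* and the shared coreceptor *Il1rap*, and all 9 were found in each of the 20 libraries. RNA was sequenced from WT mice and from mice that lack lysyl hydroxylase 1 in the whole body (*Plod1*-/-, labelled LH1 KO), 5 mice in each of 4 groups, on day 14 of infusion, from osmotic pumps under the skin, with saline or with angiotensin II (Ang II) at 1000 ng per kg of body weight each minute. Both genotypes are labelled as C57BL/6 and 6 months old, whereas the study's methods give the substrain C57Bl/6NCrl, a younger age at pump implantation and male sex. The mice were littermates, and the constitutive deletion affects every cell of the aorta. Values are FPKM, that is, fragments scaled by gene length and by the mapped fragments of the library, so that levels can be compared between genes. How deeply each library was sequenced is unknown.

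IL-1α and IL-1β bind the receptor encoded by *Il1r1*, which then recruits the coreceptor encoded by *Il1rap* and signals through MyD88 to NF-kB. The product of *Il1rn* occupies the same receptor without recruiting the coreceptor, and that of *Il1r2* binds IL-1 but has no signalling domain. IL-33 is an alarmin of stromal and endothelial nuclei that signals through ST2, encoded by *Il1rl1*, together with the same coreceptor, and IL-18 acts through receptors of its own. IL-1β and IL-18 are made as precursors that caspase-1 cleaves. Each value covers a whole gene, so the soluble forms of ST2 and of the coreceptor, which act as decoys, and the secreted and intracellular forms of the antagonist cannot be told apart from the other products of their genes.

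The libraries were checked first. *Plod1* stood between 22.8 and 29.7 FPKM in the 10 WT mice and between 0 and 0.0415 FPKM in the 10 *Plod1*-/- mice. The summed FPKM of the 8 smooth muscle markers, which include *Acta2* and *Myh11*, lay between 14151 and 20757 in the 10 saline-treated mice, so that the labelled tissue carried its defining RNAs. Under Ang II the same sum lay between 5532 and 17074 in WT mice and between 2327 and 16992 in *Plod1*-/- mice. *Xist*, the RNA of the inactive X chromosome, was above 1 FPKM in 2 libraries, saline-treated *Plod1*-/- replicate 5 at 15.1 and Ang II-treated *Plod1*-/- replicate 1 at 7.93. The second of these also had the highest smooth muscle sum of its group, and the limma tests of the family are therefore given with and without both. Among the Ang II-treated WT mice, replicate 1 stood apart with a summed FPKM of 2336 for 12 monocyte and macrophage markers, against 405 to 629 in the other 4 mice.

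The genes lie on 5 chromosomes of GRCm38. *Il1r2* (1:40074079-40125231), *Il1r1* (1:40225080-40317257) and *Il1rl1* (1:40429570-40465415) follow each other on the plus strand of chromosome 1. *Il1a* (2:129299610-129309972) and *Il1b* (2:129364570-129371139) are neighbours on the minus strand of chromosome 2, and *Il1rn* (2:24336853-24351494) lies far from them on the plus strand. *Il18* (9:50554827-50581840), *Il33* (19:29925114-29960718) and *Il1rap* (16:26581704-26730117) are on the plus strand of other chromosomes. The libraries did not keep the strand, and in the annotation *Il1b* overlaps the antisense *Il1bos*, *Il18* overlaps *Bco2* and *Tex12*, *Il1r2* overlaps *Gm16894* and *Gm37347*, *Il1r1* overlaps *Gm38070*, *Il1a* overlaps *Gm14023* and *Il1rap* overlaps *Gm20319*. The highest of these partners with a value in the files was *Bco2*, at no more than 1.37 FPKM in any mouse. The others with a value did not exceed *Gm16894*, whose maximum was 0.59 FPKM.

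The 250 bases before the RefSeq start (GRCm38.p6) are shown for the IL-1 agonists, for the antagonist and for the decoy receptor, since the levels of *Il1b*, *Il1r2* and *Il1rn* moved together below while that of *Il1a* stayed near 0. Capitals mark matches on either strand to an AP-1 site (TGANTCA), to the PU.1 core (GAGGAA), to a TATA box (TATAAA) or to the NF-kB consensus. The window of *Il1r2* starts inside the gene as GENCODE draws it, and only the outermost of the 3 *Il1rn* windows is shown.
*Il1b*, chr2:129371140-129371389, minus strand: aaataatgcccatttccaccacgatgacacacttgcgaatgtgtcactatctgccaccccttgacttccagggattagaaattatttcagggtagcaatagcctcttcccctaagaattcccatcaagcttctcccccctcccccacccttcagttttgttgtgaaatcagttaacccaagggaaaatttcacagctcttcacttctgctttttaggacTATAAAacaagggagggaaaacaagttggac
*Il1a*, chr2:129309973-129310222, minus strand: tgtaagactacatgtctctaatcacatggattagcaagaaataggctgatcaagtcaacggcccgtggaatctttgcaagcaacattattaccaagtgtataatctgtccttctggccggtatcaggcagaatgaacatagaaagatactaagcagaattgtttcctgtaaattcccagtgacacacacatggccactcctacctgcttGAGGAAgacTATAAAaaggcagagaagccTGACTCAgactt
*Il1rn*, chr2:24336610-24336859, plus strand: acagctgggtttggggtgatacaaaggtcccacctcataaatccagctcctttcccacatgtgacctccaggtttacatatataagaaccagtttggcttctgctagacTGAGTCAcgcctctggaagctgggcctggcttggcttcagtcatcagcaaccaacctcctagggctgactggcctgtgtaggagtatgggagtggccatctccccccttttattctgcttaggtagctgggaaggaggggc
*Il1r2*, chr1:40085843-40086092, plus strand: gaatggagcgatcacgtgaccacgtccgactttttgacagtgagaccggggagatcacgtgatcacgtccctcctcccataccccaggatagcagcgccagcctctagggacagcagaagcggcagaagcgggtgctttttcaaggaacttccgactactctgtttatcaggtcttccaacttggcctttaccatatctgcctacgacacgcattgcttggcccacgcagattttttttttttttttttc
The window of *Il1b* held a TATA box from 31 to 26 bases before the start. That of *Il1a* held a TATA box, a PU.1 core just upstream of it, and an AP-1 site downstream of both. That of *Il1rn* held an AP-1 site, and that of *Il1r2* none of the 4 motifs. Over all 9 genes and 14 windows, 5 windows held a TATA box, 2 an AP-1 site, 1 a PU.1 core and 1, at a second start of *Il1r1*, the NF-kB consensus. Among 32851 windows of the same length, 12.4% held a TATA box, 6.75% an AP-1 site, 23.3% a PU.1 core and 7.25% the NF-kB consensus. These are matches of letters only.

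*Il1b* was low in 3 groups and high in the fourth. Its FPKM in the 5 saline-treated WT mice was 0.608, 0.194, 0.213, 0.273 and 0.432, and in the 5 saline-treated *Plod1*-/- mice it was 0.166, 0.124, 0.28, 0.0919 and 0.0561. In Ang II-treated WT mice it was 1.26, 0.279, 0.161, 0.366 and 2.8. In Ang II-treated *Plod1*-/- mice it was 6.03, 14.9, 59.1, 33.9 and 22.4, so that the lowest mouse of this group lay above every mouse of the other groups. The other agonist, *Il1a*, did not exceed 0.512 FPKM in any mouse and was listed at 0 in 8 of them, 1 of these in the Ang II-treated *Plod1*-/- group.

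*Il1r2*, the decoy, had a pattern like that of *Il1b*. It stood at 9.07, 26.6, 35.8, 39.7 and 27.2 FPKM in Ang II-treated *Plod1*-/- mice and between 0.0551 and 0.399 in saline-treated *Plod1*-/- mice. In WT mice it was between 0.19 and 1.01 FPKM under saline, and 4.84, 0.428, 0.423, 0.164 and 0.467 under Ang II. The first of these is the WT mouse with the high macrophage marker sum. No WT mouse reached the lowest value of the Ang II-treated *Plod1*-/- group.

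*Il1rn*, the antagonist, was at lower levels. It was 1.06, 0.728, 2.7, 2.76 and 3.41 FPKM in Ang II-treated *Plod1*-/- mice, and between 0.019 and 0.179 in saline-treated *Plod1*-/- mice. In WT mice it was between 0.0196 and 0.194 FPKM under saline, and 0.772, 0.276, 0.201, 0.132 and 0.79 under Ang II. The Ang II-treated groups overlapped, because 2 WT mice lay above the lowest *Plod1*-/- mouse.

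*Il33* and *Il1r1* differed from these genes in being well expressed in every group. *Il33* was 10.05, 14.5, 12.1, 19.4 and 9.72 FPKM in saline-treated WT mice and 4.27, 6.4, 4.37, 3.91 and 4.96 in saline-treated *Plod1*-/- mice, without overlap. Under Ang II it was 29.6, 3.99, 5.96, 12.8 and 8.4 FPKM in WT mice and 19.7, 27.1, 40.6, 31.4 and 53.3 in *Plod1*-/- mice. The lowest group was thus the saline-treated and the highest the Ang II-treated *Plod1*-/- group. *Il1r1* had a mean of 8.98 ± 1.76 FPKM (SD, n = 5) in WT mice and 6.53 ± 0.885 in *Plod1*-/- mice under saline and 6.22 ± 2.69 in WT mice under Ang II, 3 groups whose ranges overlapped. In Ang II-treated *Plod1*-/- mice it was 11.7, 14.3, 15.5, 19.8 and 27.1 FPKM, all above the 10.3 of the highest Ang II-treated WT mouse, and the lowest of them stood level with the highest saline-treated WT mouse (11.69 against 11.68).

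*Il18* was close to 1 FPKM under saline, with a mean of 0.991 ± 0.343 (SD, n = 5) in WT and 1.13 ± 0.375 in *Plod1*-/- mice. Under Ang II it was 3.46, 1.72, 1.08, 1.05 and 1.49 FPKM in WT mice and 2.35, 6.05, 12.5, 8.01 and 9.87 in *Plod1*-/- mice. The receptors of low level were *Il1rl1*, which did not exceed 0.381 FPKM outside the Ang II-treated *Plod1*-/- group and stood at 0.58, 0.424, 0.568, 0.99 and 2.29 within it, and *Il1rap*, which ran from 0.231 to 1.19 FPKM over all 20 mice. The highest group mean of each gene was in Ang II-treated *Plod1*-/- mice, but the share of all genes with this order was not counted. For *Il1a* (0.212 against 0.11 FPKM in Ang II-treated WT mice) and *Il1rap* (0.881 against 0.669 in saline-treated WT mice) both means were low. In that group the order of mean levels was *Il33* (34.4 FPKM), *Il1r2* (27.7), *Il1b* (27.3), *Il1r1* (17.7), *Il18* (7.76), *Il1rn* (2.13), *Il1rl1* (0.97), *Il1rap* (0.881) and *Il1a* (0.212), and the ranges of each pair of neighbours overlapped except for *Il1rap* and *Il1a*. In saline-treated WT mice *Il33* (13.2 FPKM) and *Il1r1* (8.98) together made up most of the summed level, and *Il1rap* (0.669) stood above *Il1r2* (0.503) and *Il1b* (0.344).

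**Figure D1:**
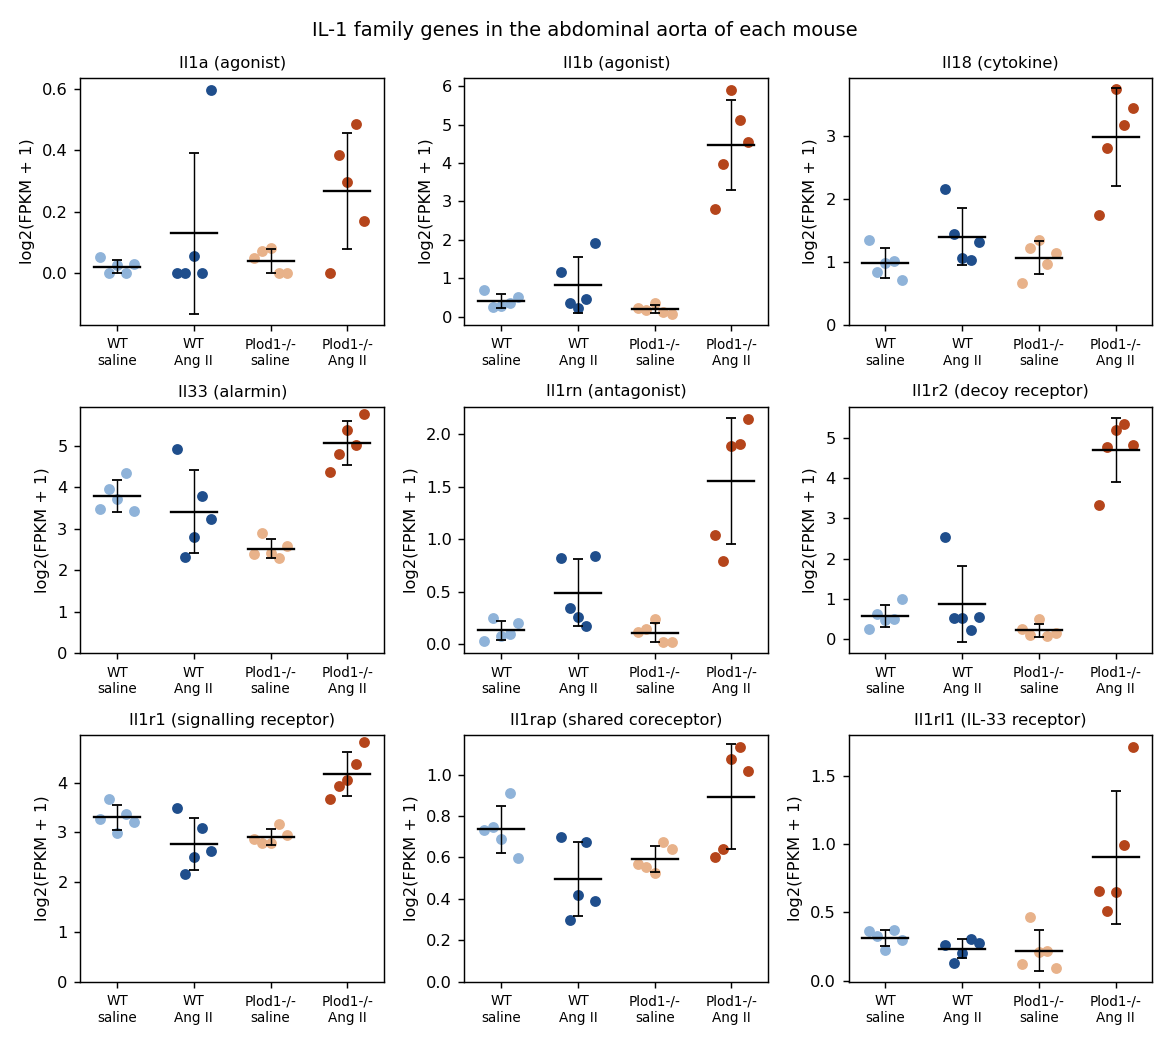
Level of each of the 9 genes as log2(FPKM + 1) on the y axis, with 1 point per mouse, the 4 groups on the x axis, and the mean and SD of 5 mice as a black line and bar. The y axes differ between panels. The 5 Ang II-treated *Plod1*-/- mice lie above every saline-treated *Plod1*-/- mouse for 7 genes, all but *Il1a* and *Il1rap*.

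The effect of Ang II was tested within each genotype with limma on log2(FPKM + 1), which makes the changes of low genes look smaller, over all genes that reached 1 FPKM in 5 or more of the 10 mice. A gene was called when its Benjamini-Hochberg adjusted p was below 0.05 and its mean changed more than 2-fold on this scale (a log2 fold change beyond 1 or -1). For genes under this filter, two-sided exact permutation tests were used, and 0.00794 is the smallest p that 5 against 5 mice can give. These p-values measure the spread between single mice.

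In *Plod1*-/- mice, 5 of the 9 genes passed the filter and all 5 rose under Ang II. Over all genes, 8.38% were called higher and 5.51% lower. *Il1b* and *Il1r2* passed only through their level in the Ang II-treated group. *Il18* reached 1 FPKM in 3 of the 5 saline-treated mice, so it also needed Ang II-treated mice to pass. *Il1r2* rose by 4.48 ± 0.32 (log2, SE, limma adjusted p = 2.1e-05) and *Il1b* by 4.29 ± 0.46 (adjusted p = 9.3e-05). Without the added 1, the ratios of the mean FPKM were 168 and 190.2, over saline means of only 0.164 and 0.143. *Il33* rose by 2.55 ± 0.23 (adjusted p = 4.4e-05), *Il18* by 1.92 ± 0.33 (adjusted p = 0.00103) and *Il1r1* by 1.26 ± 0.19 (adjusted p = 5.9e-04). The median log2 change of all 12333 genes tested was 0.05. All 5 remained called in each of 20 alternative analyses. Without both libraries that held *Xist* RNA, *Il1b* rose by 4.68, *Il1r2* by 4.81, *Il33* by 2.74, *Il18* by 2.25 and *Il1r1* by 1.40. Fits with mice left out kept the genes tested with all mice. *Il1b* and *Il1r2* reached 1 FPKM only in the Ang II-treated mice, and without any of these they would fall under the filter.

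Of the 4 genes below the filter, *Il1rn* and *Il1rl1* did not overlap between the treatments. *Il1rn* was higher under Ang II by 1.44 on the log2 scale and *Il1rl1* by 0.68 (exact permutation p = 0.00794 for each). In a limma fit with no filter on low values, *Il1rn* rose as well (adjusted p = 0.00428) whereas *Il1rl1* had an adjusted p of 0.0645. *Il1a* differed by 0.23 (exact permutation p = 0.0476, above 0.05 in 10 of 11 alternatives and up to 0.0873) and *Il1rap* by 0.30 (p = 0.0556). Counting all 9 genes, 7 had no overlap and were higher under Ang II, against 7.37% of the 38919 genes with a value above 0 in any of these mice.

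In WT mice 3 of the 9 genes passed the filter, and limma called none of them. Over all genes, 6.38% were called higher and 2.28% lower. At an unadjusted p below 0.05 there was 1, *Il1r1*, with a log2 change of -0.53 ± 0.23 (SE; limma adjusted p = 0.0862). *Il18* differed by 0.42 ± 0.21 (adjusted p = 0.12) and *Il33* by -0.37 ± 0.41 (adjusted p = 0.48). None of the 3 was called in any of 19 alternatives. The lowest adjusted p among these limma fits was 0.00629 for *Il1r1* and 0.0338 for *Il18*, but their log2 changes stayed under the fold limit. They ran from -0.707 to -0.373 for *Il1r1* and from 0.235 to 0.687 for *Il18*. The median log2 change of all genes tested was -0.14.

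Below the filter, *Il1rn* was higher in Ang II-treated WT mice by 0.36 on the log2 scale (exact permutation p = 0.0317, up to 0.0952 when 1 mouse was left out). *Il1b*, with a log2 difference of 0.41, had an exact permutation p of 0.317, and *Il1r2*, with 0.30, one of 0.746. The value of *Il1r2* rested on replicate 1, without which it was -0.12. *Il1rap* was -0.24 (exact permutation p = 0.0556), *Il1rl1* -0.08 (p = 0.0952) and *Il1a* 0.11 (p = 0.643), and the groups overlapped for all 9 genes.

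The responses of the genotypes were compared directly by the interaction of genotype and treatment over all 20 mice, with 9.69% of genes called higher and 6.36% lower. Of the 9 genes 5 passed its filter, *Il1b* and *Il1r2* again only through the Ang II-treated *Plod1*-/- group, and each of the 5 had a larger response in *Plod1*-/- mice. The difference between the responses was 4.18 ± 0.53 for *Il1r2* (log2, SE; limma adjusted p = 3.6e-05), 3.88 ± 0.58 for *Il1b* (adjusted p = 1.3e-04), 2.92 ± 0.51 for *Il33* (adjusted p = 3.9e-04), 1.79 ± 0.32 for *Il1r1* (adjusted p = 4.4e-04) and 1.49 ± 0.41 for *Il18* (adjusted p = 0.00824). Each was called in all 29 alternatives, and without both libraries that held *Xist* RNA the differences were 4.51, 4.27, 3.11, 1.92 and 1.82 in the same order. With no filter on low values it was 1.08 ± 0.30 for *Il1rn* (adjusted p = 0.0248), 0.76 ± 0.23 for *Il1rl1* (adjusted p = 0.039), 0.54 ± 0.16 for *Il1rap* (adjusted p = 0.0374) and 0.12 ± 0.14 for *Il1a* (adjusted p = 0.592), of which only *Il1rn* also passed the fold limit.

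**Figure D2:**
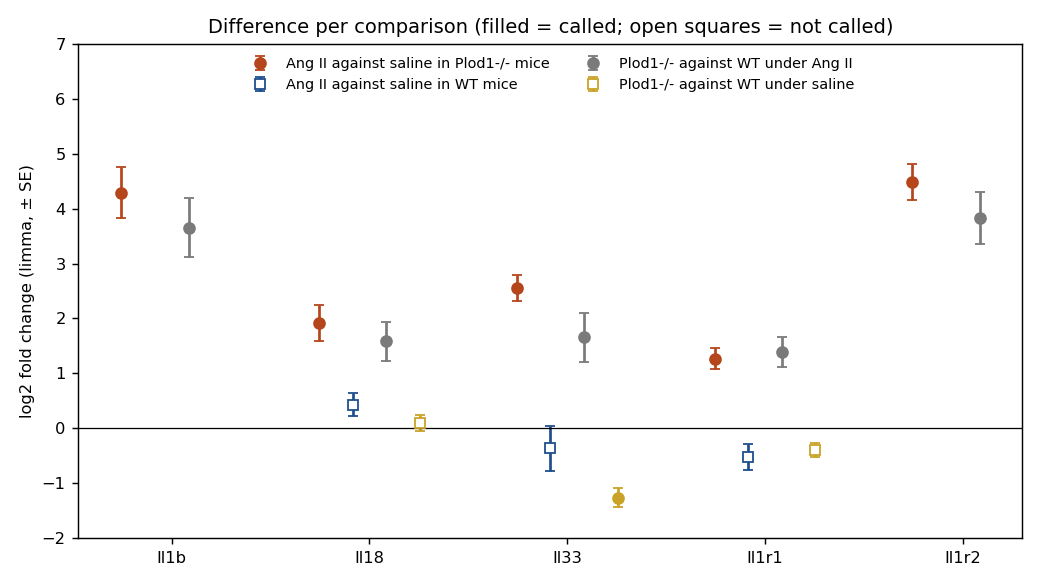
Log2 fold change from limma (y axis, with SE) of the 5 genes that passed the filter in *Plod1*-/- mice (x axis), for the comparisons of 5 against 5 mice; filled circles are called and open squares are not, and *Il1b* and *Il1r2* have no point where they were below the filter. The Ang II effect in *Plod1*-/- mice lies between 1.26 and 4.48, and *Il33* has the single called decrease, in saline-treated *Plod1*-/- against WT mice.

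Under Ang II, *Plod1*-/- mice were compared with WT mice. Over all genes, 7.45% were called higher and 3.67% lower, and the 5 IL-1 family genes tested were each called higher in *Plod1*-/- mice. *Il1b* and *Il1r2* passed the filter only through the *Plod1*-/- mice, so their part in this count was fixed by the filter. *Il1r2* differed by 3.83 ± 0.48 (log2, SE; limma adjusted p = 0.00111), *Il1b* by 3.65 ± 0.53 (adjusted p = 0.00181), *Il1r1* by 1.39 ± 0.27 (adjusted p = 0.00589) and *Il18* by 1.58 ± 0.35 (adjusted p = 0.00922). *Il33* differed by 1.66 ± 0.44 (adjusted p = 0.0184), was called in 18 of 20 alternatives, and had an adjusted p of 0.0514 without Ang II-treated WT replicate 3 and of 0.0554 with no filter on low values. Without both libraries that held *Xist* RNA, *Il1b* differed by 4.07, *Il1r2* by 4.17, *Il33* by 1.83, *Il18* by 1.89 and *Il1r1* by 1.52. The comparison shares its Ang II-treated *Plod1*-/- mice with that of the treatments above.

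For the genes below the filter, *Il1rl1* was higher in the *Plod1*-/- mice by 0.67 on the log2 scale, without overlap (exact permutation p = 0.00794). *Il1rn* was higher by 1.06 (exact permutation p = 0.0238) and *Il1rap* by 0.40 (p = 0.0476), with p-values of up to 0.0556 and 0.0794 in the alternatives. *Il1a* differed by 0.14 (exact permutation p = 0.365). Of the 9 genes, *Il1b*, *Il1r1*, *Il1r2* and *Il1rl1* had no overlap and were higher, against 5.06% of 38986 genes. *Il18* and *Il33* overlapped through a single WT mouse, the same replicate 1.

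Under saline, limma called 1 of the 3 family genes tested between the genotypes, *Il33*. It was lower in *Plod1*-/- mice, with a log2 difference of -1.27 ± 0.18 (SE; limma adjusted p = 0.00685), where 0.408% of all genes were called lower and 0.358% higher. The mean FPKM was 13.2 ± 3.99 (SD, n = 5) in WT and 4.78 ± 0.982 in *Plod1*-/- mice. It was called in 19 of 20 alternatives and not in the fit of all 4 groups together (adjusted p = 0.0814), and without both libraries that held *Xist* RNA it was -1.28 (adjusted p = 0.0154). Of the 9 genes it alone did not overlap and was lower, against 2.49% of 40080 genes. *Il1r1* had a log2 difference of -0.40 ± 0.13 (adjusted p = 0.0786) and *Il18* of 0.09 ± 0.15 (adjusted p = 0.724), which without those 2 libraries were -0.40 and 0.07.

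Genes below the filter were also lower in saline-treated *Plod1*-/- mice in several cases. The log2 difference was -0.35 for *Il1r2* (exact permutation p = 0.0317), -0.23 for *Il1b* (p = 0.0397) and -0.14 for *Il1rap* (p = 0.0317). Their levels were under about 1 FPKM in both groups, and the p-values rose to 0.0635, 0.0952 and 0.0714 in the alternatives. *Il1rl1* (-0.09, exact permutation p = 0.222), *Il1rn* (-0.02, p = 0.667) and *Il1a* (0.02, p = 0.397) did not pass the test.

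Agonists were set against the antagonist and the decoy by the log2 ratio of their FPKM in each mouse, with 0.1 added to each value. These ratios are a description with no test, and those of the low groups depend on the value added. *Il1b* exceeded *Il1rn* by 3.45 ± 0.884 (log2 ratio, SD, n = 5) in *Plod1*-/- mice under Ang II, with single mice at 2.41, 4.18, 4.4, 3.57 and 2.68. The same ratio was 0.432 ± 0.221 in saline-treated *Plod1*-/- mice, and in WT mice it was 1.15 ± 0.917 under saline and 0.63 ± 0.771 under Ang II. Only saline-treated WT replicate 1, at 2.57, reached into the range of the Ang II-treated *Plod1*-/- mice.

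The ratio of agonist to decoy did not separate the groups. *Il1b* to *Il1r2* was -0.239 ± 0.591 (log2 ratio, SD, n = 5) in *Plod1*-/- mice under Ang II, -0.0473 ± 0.386 in saline-treated *Plod1*-/-, and in WT mice -0.388 ± 0.976 under saline and -0.0347 ± 1.65 under Ang II. The summed agonists *Il1a* and *Il1b* against the sum of *Il1rn* and *Il1r2* gave -0.341 ± 0.581 in Ang II-treated *Plod1*-/- mice and group means between -0.574 and -0.274 in the others. In Ang II-treated *Plod1*-/- mice the sum of antagonist and decoy was above that of the agonists in 4 of 5 mice, and *Il1r2* supplied most of it.

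The decoy came up to the level of the signalling receptor in Ang II-treated *Plod1*-/- mice. The log2 ratio of *Il1r2* to *Il1r1* was -4.03 ± 0.73 (SD, n = 5) in WT and -4.78 ± 0.8 in *Plod1*-/- mice under saline, and -3.02 ± 1.35 in WT mice under Ang II. In Ang II-treated *Plod1*-/- mice it was 0.546 ± 0.685, with *Il1r2* above *Il1r1* in 3 mice (0.889, 1.20 and 0.997), level with it in replicate 5 (0.00137) and below it in replicate 1 (-0.362), and even this mouse lay above every mouse of the other groups. *Il33* remained far above the transcript of its receptor everywhere. The log2 ratio of *Il33* to *Il1rl1* had group means between 4.26 and 5.23, with the lowest in saline-treated *Plod1*-/- mice.

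**Figure D3:**
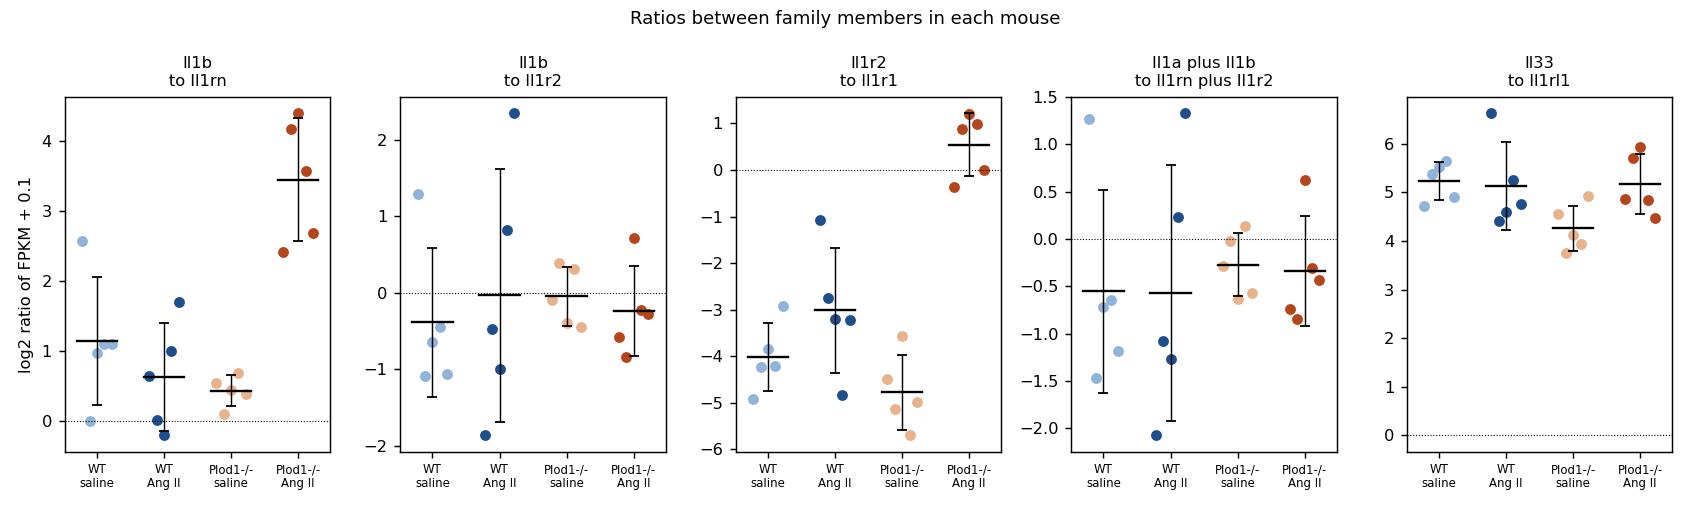
Log2 ratio of FPKM between family members, with 0.1 added to each value (y axis), for each mouse of the 4 groups (x axis), with the mean and SD of 5 mice; the dotted line at 0 marks equal levels. In Ang II-treated *Plod1*-/- mice *Il1b* to *Il1rn* averages 3.45 and *Il1r2* to *Il1r1* 0.546, while *Il1b* to *Il1r2* averages -0.239.

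Other genes of the pathway were counted by lists. These lists and the cell type lists below were chosen with earlier results of these data known. The shares of all genes beside their counts are therefore a reference and no test. Of 5 further ligands of the family none passed the filter in any comparison. The IL-36γ gene, which the annotation calls *Il1f9*, had a mean of 1.39 ± 0.997 FPKM (SD, n = 5) in *Plod1*-/- mice under Ang II and 0.231 ± 0.275 in WT mice under Ang II. Of 7 further receptors and binding proteins, 2 were tested in *Plod1*-/- mice and neither was called. *Il18bp*, the soluble inhibitor of IL-18, had a log2 change of 0.93 ± 0.20 (limma adjusted p = 0.00333), under the fold limit, with means of 1.46 FPKM under saline and 3.7 under Ang II. *Il1rl2*, the IL-36 receptor, was higher in *Plod1*-/- than in WT mice under Ang II by 1.25 ± 0.28 (log2, SE; limma adjusted p = 0.00878).

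Of the 17 genes for processing and release, 12 were tested in *Plod1*-/- mice and 3 rose under Ang II, where 8.38% of all genes did. These were *Casp1*, the protease that matures IL-1β and IL-18 (1.45 ± 0.33, limma adjusted p = 0.00531), *Casp8* (1.18 ± 0.25, adjusted p = 0.00324) and *Gsdmd*, whose product forms the pore through which IL-1β leaves the cell (1.21 ± 0.24, adjusted p = 0.00265). *Nlrp3*, the inflammasome sensor, was below the filter, with a mean of 3.16 ± 1.91 FPKM (SD, n = 5) in *Plod1*-/- mice under Ang II and of 0.171 to 0.406 in the other groups. Under Ang II, *Casp8* was called higher and *Txnip* lower in *Plod1*-/- than in WT mice, 1 of 12 each against 7.45% and 3.67% of all genes, while *Casp1* was not called (0.81 ± 0.31, adjusted p = 0.0685). In WT mice limma called none of 11 tested, against 6.38% higher and 2.28% lower of all genes.

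Among 16 adaptors and kinases, 15 were tested and *Myd88* alone was called higher under Ang II in *Plod1*-/- mice (1.08 ± 0.12, limma adjusted p = 9.8e-05), a count near the 8.38% of all genes. Between the Ang II-treated genotypes none of the 15 was called by limma, and *Myd88* differed by 0.80 ± 0.20 (adjusted p = 0.0134), under the fold limit. In WT mice *Peli1* alone was called, and lower, where 2.28% of all genes were called lower. Of 14 NF-kB subunits and feedback genes, 12 were tested in *Plod1*-/- mice, and 3 members of the IκB family rose, where 8.38% of all genes did. They were *Bcl3* (2.51 ± 0.25, limma adjusted p = 6.2e-05), *Nfkbiz* (1.42 ± 0.19, adjusted p = 2.9e-04) and *Nfkbie* (1.25 ± 0.20, adjusted p = 7.9e-04). In WT mice 11 were tested and none was called, against 6.38% higher and 2.28% lower of all genes. Between the Ang II-treated genotypes 3 of 13, *Bcl3*, *Nfkbid* and *Nfkbiz*, were called higher in *Plod1*-/- mice, against 7.45% of all genes. *Nfkbid*, at a mean of 0.787 FPKM in these WT mice, needed *Plod1*-/- mice to pass the filter.

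Of 17 genes that IL-1 is known to induce, 13 were tested in *Plod1*-/- mice and 9 rose under Ang II, where 8.38% of all genes did. They were the chemokines *Ccl2* (4.26 ± 0.42, limma adjusted p = 5.5e-05), *Ccl7*, *Cxcl1*, *Cxcl2* and *Cxcl5*, the cytokine *Il6* (2.78 ± 0.22, adjusted p = 2.7e-05), the acute phase genes *Lcn2* and *Saa3*, and the prostaglandin synthase gene *Ptgs2* (2.06 ± 0.37, adjusted p = 0.00147). *Il6*, *Cxcl2*, *Cxcl5* and *Saa3* were under 1 FPKM in every saline-treated *Plod1*-/- mouse. They passed the filter only through the Ang II-treated group, so their part in this count was fixed by the filter. *Ccl2*, *Ccl7*, *Cxcl1* and *Lcn2* did not reach 1 FPKM in every saline-treated mouse, and also needed the Ang II-treated group to pass. The adhesion molecules *Icam1* (0.43 ± 0.23, limma adjusted p = 0.146) and *Vcam1* (0.26 ± 0.20, adjusted p = 0.321) did not pass. In WT mice 9 were tested and 4 fell, against 2.28% of all genes called lower. They were *Ccl2*, *Ccl7*, *Cxcl1* and *Ptgs2*, the last with a log2 change of -2.04 ± 0.36 (limma adjusted p = 0.00303). Under Ang II the acute phase genes spread widely among WT mice. *Saa3* ran from 0.0737 to 973 FPKM (mean 202, against 11.4 in *Plod1*-/- mice) and *Lcn2* from 1.86 to 218 (mean 48.7, against 40.7). In WT mice *Saa3* was below the filter and *Lcn2* was not called, and neither was called between the Ang II-treated genotypes. Between the Ang II-treated genotypes 7 of 13 were called higher in *Plod1*-/- mice, against 7.45% of all genes. Among these, *Il6* and *Cxcl5* were under 1 FPKM in every Ang II-treated WT mouse and passed the filter only through the *Plod1*-/- mice. *Ccl2*, *Ccl7*, *Cxcl1*, *Cxcl2* and *Ptgs2* did not reach 1 FPKM in every WT mouse, and also needed *Plod1*-/- mice to pass. Under saline 9 were tested, and *Ccl7* and *Cxcl1* were called lower in *Plod1*-/- mice, against 0.408% of all genes. Many stimuli other than IL-1 induce these genes.

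**Figure D4:**
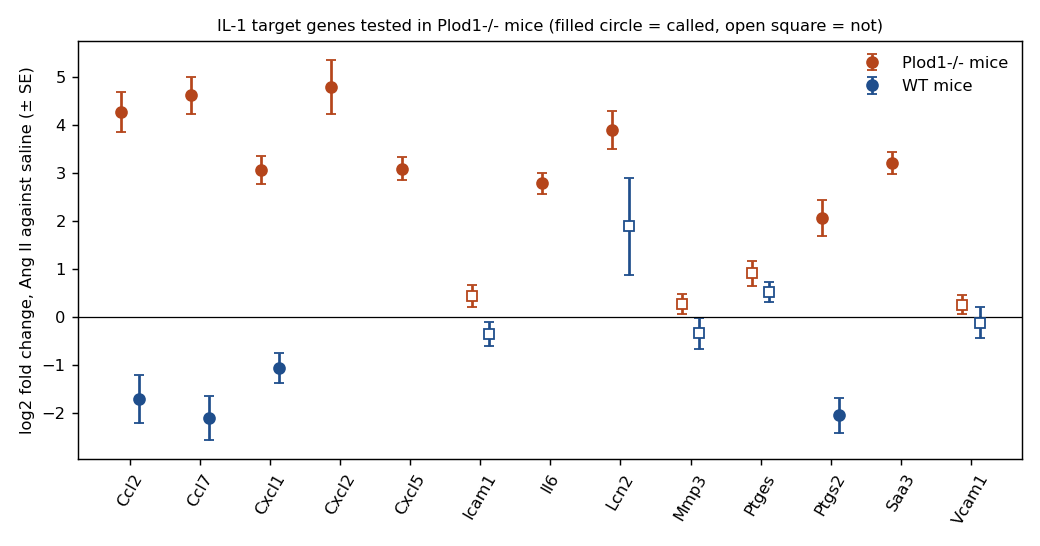
Log2 fold change between Ang II and saline (y axis, limma, with SE) of the 13 IL-1 target genes tested in *Plod1*-/- mice (x axis), in *Plod1*-/- and in WT mice; filled circles are called, open squares are not, and genes below the filter in WT mice have no blue point. *Ccl2* changes by 4.26 in *Plod1*-/- and by -1.70 in WT mice, and *Icam1* and *Vcam1* are called in neither.

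Leukocyte markers moved with the family. In bulk tissue, a change in the number of cells of a type and a change in RNA per cell cannot be told apart. The summed FPKM of 10 neutrophil markers was between 158 and 727 in Ang II-treated *Plod1*-/- mice, between 1.57 and 3.75 in saline-treated *Plod1*-/- mice, and in WT mice between 3.6 and 60.8 under saline and between 7.37 and 220.2 under Ang II. Of these 10 genes, 5 were tested between the treatments in *Plod1*-/- mice and all 5 rose, where 8.38% of all genes did. These were *S100a8* and *S100a9*, which made up most of the sum, *Retnlg* (means of 0.151 FPKM under saline and 24.5 under Ang II), *Csf3r* (0.391 and 38.5) and the chemokine receptor gene *Cxcr2* (0.0382 and 9.36). *Retnlg*, *Csf3r* and *Cxcr2* were under 1 FPKM in every saline-treated *Plod1*-/- mouse. They passed the filter only through the Ang II-treated group, so their part in this count was fixed by the filter. *S100a8* and *S100a9*, with saline medians of 0.822 and 1.1 FPKM, did not reach 1 FPKM in every saline-treated mouse and also needed that group to pass. *Ly6g*, which defines neutrophils, was low but did not overlap between these groups, at 0 to 0.0357 FPKM under saline and 0.143 to 0.28 under Ang II. In WT mice it reached 0.707 FPKM under saline and 0.391 under Ang II. Of the other markers below the filter, *Mmp8* and *Ngp* did not overlap between the treatments in *Plod1*-/- mice, whereas *Camp* and *Ltf* did. Under Ang II *Ngp* had a mean of 4.02 FPKM in WT and 0.556 in *Plod1*-/- mice.

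The 12 monocyte and macrophage markers summed to between 1160 and 6144 FPKM in Ang II-treated and between 129 and 569 in saline-treated *Plod1*-/- mice. Of these genes 11 of 11 tested were called higher, against 8.38% of all genes. *Ccr2* passed the filter only through the Ang II-treated group, and *Fcgr1*, with a saline median of 0.648 FPKM, also needed that group to pass. The 5 platelet markers summed to between 149 and 967 FPKM against 7.64 to 27.9, and the 6 red blood cell markers to between 763 and 9717 against 60 to 1524. The 8 mast cell markers and the 10 T cell and innate lymphoid cell markers, cells that carry ST2 among others, had 1 of 7 and 0 of 1 tested genes called higher. Their sums were 25.5 to 72.7 and 24.7 to 66.8 FPKM in Ang II-treated and 23.9 to 90.5 and 15.9 to 33.5 in saline-treated *Plod1*-/- mice. The second sum was mostly *Thy1*, at 21.8 to 63.2 FPKM under Ang II. Under Ang II *Thy1* was called higher in *Plod1*-/- than in WT mice. The called mast cell gene, *Hdc*, did not exceed 0.453 FPKM in saline-treated *Plod1*-/- mice and passed the filter only through the Ang II-treated group. The 2 mice with the highest neutrophil and macrophage sums, Ang II-treated *Plod1*-/- replicates 3 and 4, were also the 2 highest for *Il1b* and for *Il1r2*. The part of these cells in the results was not tested. *Il33* and *Il1r1* were highest in replicate 5 of that group, whose macrophage sum was 3046.

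**Figure D5:**
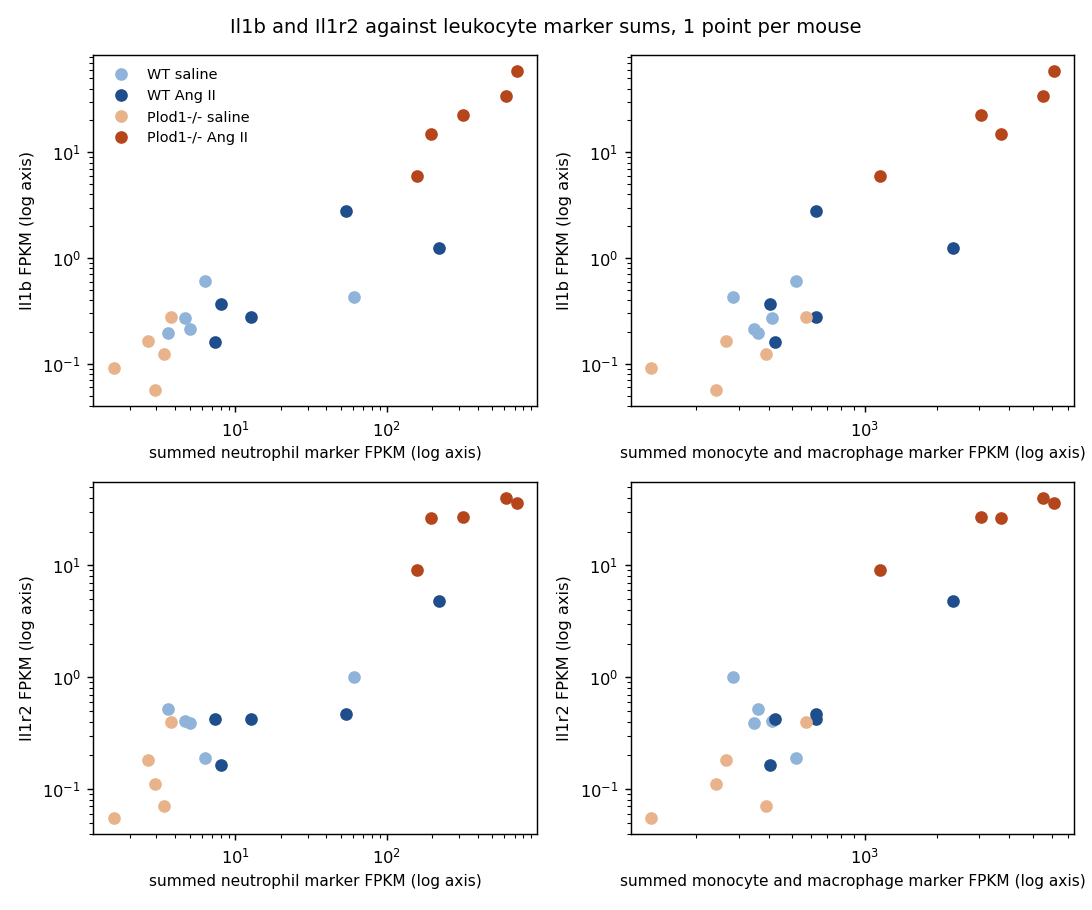
FPKM of *Il1b* (top) and *Il1r2* (bottom) on a log y axis against the summed FPKM of 10 neutrophil markers (left) or 12 monocyte and macrophage markers (right) on a log x axis, with 1 point per mouse coloured by group. The 5 Ang II-treated *Plod1*-/- mice sit at neutrophil sums of 158 or more and at the highest values of both genes, and Ang II-treated WT replicate 1 reaches 220.2 with *Il1b* at 1.26.

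Smooth muscle, endothelial and stromal markers moved in other ways. Between the treatments in *Plod1*-/- mice, 6 of 8 smooth muscle markers fell, 3 of 9 endothelial markers rose, and of 9 fibroblast markers 2 rose and 2 fell. Of all genes, 8.38% were called higher and 5.51% lower. The endothelial sum overlapped between the groups, at 67.1 to 203 FPKM under Ang II and 87.8 to 190.1 under saline. Under saline, where *Il33* was lower in *Plod1*-/- mice, 0 of 8 endothelial and 2 of 9 fibroblast markers were called lower. Of all genes 0.408% were. The median log2 difference was -0.593 for the endothelial and -0.587 for the fibroblast markers tested. Endothelial sums were 87.8 to 190.1 FPKM in *Plod1*-/- and 128 to 318 in WT mice, and fibroblast sums were 837 to 1241 and 1141 to 1720. B cell marker sums ran from 0.576 to 12.4 FPKM and mesothelial sums from 0.309 to 20.8 FPKM over all 20 mice. In *Plod1*-/- mice their medians were 1.24 and 1.93 under saline and 4.47 and 7.42 under Ang II. In WT mice the medians were 0.787 and 0.618 under saline and 1.7 and 0.884 under Ang II. For each list 1 gene was tested between the treatments in *Plod1*-/- mice, and neither was called.

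Adipocyte markers also moved with Ang II in both genotypes. The 8 markers summed to between 134 and 711 FPKM in WT mice under saline and between 1394 and 6195 under Ang II. There 7 of 7 tested were called higher, against 6.38% of all genes. In *Plod1*-/- mice the markers summed to between 228 and 2036 FPKM under saline and between 911 and 7009 under Ang II. Here 3 of 8 were called higher, against 8.38% of all genes. Between the Ang II-treated genotypes the brown fat genes *Cidea* and *Ucp1*, 2 of 8 tested, were called lower in *Plod1*-/- mice, against 3.67% of all genes. The part of fat around the vessel in the results was not tested.

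Genes with the most similar pattern were sought among 13263 genes over the 20 mice, by Pearson's r of log2(FPKM + 1). These r values are a description, since the points share the large difference of 1 group, and r of the deviations from the group means is given second. For *Il1b* they were *Uhrf1* (0.985 and 0.866), *Tyms* (0.985 and 0.903) and *Cenpa* (0.984 and 0.91), genes of DNA replication and mitosis. For *Il1r2* they were *Gm19951* (0.992 and 0.92), the heme oxygenase gene *Hmox1* (0.987 and 0.912) and *Mcemp1* (0.987 and 0.941). For *Il18* they were *Zmynd15* (0.979 and 0.948), *Ms4a7* (0.979 and 0.926) and *Ly9* (0.979 and 0.906).

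*Il33* and *Il1r1* had other neighbours. Those of *Il33* were *Plscr1* (0.949 and 0.867), *St3gal4* (0.948 and 0.866) and *Cd14* (0.931 and 0.756). Those of *Il1r1* were *Lox*, which encodes a collagen and elastin crosslinking enzyme (0.983 and 0.953), and the fibrillar collagen genes *Col5a2* (0.963 and 0.922) and *Col3a1* (0.958 and 0.922). Between members, r of the deviations was highest for *Il33* and *Il1r1* (0.812), and was 0.314 for *Il1b* and *Il1r1* and 0.601 for *Il1b* and *Il1r2*.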

How the data were processed

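RNA from the abdominal aorta of 20 mice (4 groups of 5) was sequenced. The authors removed ribosomal RNA reads, aligned with HISAT2 and quantified with stringtie, cuffquant and cuffnorm at default settings, so that the deposited unit is FPKM for each Ensembl gene after cuffnorm's scaling of the libraries. The submitters' processing notes name mm10, Bowtie2 2.2.3, HISAT2 2.1.0 and HTSeq 0.6.0. Since the depth is unknown, intervals and detection limits are left out. The kit was not strand-specific. Symbols and positions came from GENCODE M21 (GRCm38), and promoters from RefSeq (GRCm38.p6), which had all 9 genes.

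Groups and replicate numbers came from the labels. Genes that reached 1 FPKM in 5 or more mice of a fit were tested with limma 3.58.1 (R 4.3.3) on log2(FPKM + 1), eBayes with a variance trend and Benjamini-Hochberg adjustment over all genes, and the method was tested on simulated data. Genes below the filter had two-sided exact permutation tests. Named genes were the 9 members, called genes of the lists, and the 3 genes nearest in pattern to each member above the filter over 20 mice. *Nlrp3*, *Il1f9*, *Il18bp*, *Icam1*, *Vcam1*, *Ly6g*, *Mmp8*, *Camp*, *Ltf* and *Ngp* were named after their values were seen. The members and lists were chosen with earlier results of these data known. Alternatives were a pseudocount of 0.1, no filter, a replicate block, no variance trend, weights per mouse, quantile normalization, mitochondrial genes left out, variances per gene without moderation, a single fit of all 4 groups, the adjusted p alone, both libraries with *Xist* RNA left out, and each mouse left out. The fits with mice left out kept the genes tested with all mice. Ratios were repeated with a pseudocount of 1. Figures were drawn with matplotlib 3.10.9 (Python 3.11.15).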

Additional observations from a re-analysis of the deposited data

Results flagged for a closer look

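In 3 of 36 pairs of gene and group, the gap between 1 mouse and the nearest other was above Dixon's limit of 0.71 of the range of 5 mice, all 3 in Ang II-treated WT mice. For independent, normally distributed values the limit flags about 1 in 20 such groups. These FPKM include ties at 0 and the same mice enter for every gene, so that rate may not hold here. *Il1r2* was 4.84 FPKM in replicate 1 against at most 0.467 in the other 4 mice, and *Il18* was 3.46 FPKM in the same mouse against at most 1.72. *Il1a* was 0.512 FPKM in replicate 5 against at most 0.0389.

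The Ang II response differed between the genotypes, by the interaction term over 20 mice, for *Il1b* (3.88, limma adjusted p = 1.3e-04), *Il18* (1.49, adjusted p = 0.00824), *Il33* (2.92, adjusted p = 3.9e-04), *Il1r1* (1.79, adjusted p = 4.4e-04) and *Il1r2* (4.18, adjusted p = 3.6e-05), each as the log2 change in *Plod1*-/- minus that in WT mice.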

How the results depend on the processing

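Over 41 results on single genes, 630 of 682 values under the alternatives kept their direction and their side of the threshold, 42 no longer passed it, 7 newly passed it and 3 changed sign. The changes of sign were *Il1a* in WT mice without Ang II-treated replicate 5 (-0.00765), *Il1r2* in WT mice without Ang II-treated replicate 1 (-0.117) and *Il1rn* between the genotypes under saline without saline-treated WT replicate 2 (0.00753), all differences that had not passed the test, and with 1 mouse left out they ran up to 0.142, up to 0.465 and down to -0.0543. With each mouse left out in turn, the number of family genes called stayed at 5 for the Ang II effect in *Plod1*-/- mice and for the interaction, at 0 for the Ang II effect in WT mice and at 1 for the genotypes under saline, and ran from 4 to 5 for the genotypes under Ang II, where *Il33* was lost without WT replicate 3. The fits with mice left out kept the genes tested with all mice. *Il1b* and *Il1r2* therefore stayed in the Ang II comparison of *Plod1*-/- mice although, without an Ang II-treated mouse, they were under the filter. With all 4 groups in one fit, the count under saline was 0 in place of 1. With a pseudocount of 1, the mean log2 ratio of *Il1b* to *Il1rn* was 0.0788 in saline-treated *Plod1*-/- mice, that of *Il1r2* to *Il1r1* was -2.74 in saline-treated WT and -2.69 in saline-treated *Plod1*-/- mice, and that of *Il33* to *Il1rl1* was 3.47 under saline and 3.18 under Ang II in WT mice and 2.3 and 4.16 in *Plod1*-/- mice, smaller by construction for low values. With the replicate number as a block, the family counts were 5, 0, 5, 1 and 5 as before, with 1717, 1026, 1129, 63 and 2094 genes called over all genes. The numbers did not pair the mice, since the correlation of same-numbered mice ran from -0.332 to 0.421. Values of *Il1a*, *Il1rl1* and *Il1rap* near or below 1 FPKM are limited by an unknown depth.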
